A study of Mus musculus with 123 samples.

Results

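Primitive endoderm genes were followed in single mouse embryos that lacked Oct4 or Sox2. The 7 genes were Gata6, Gata4, Sox17, Sox7, Foxa2 and Hnf4a, which encode transcription factors, and Pdgfra, which encodes a receptor tyrosine kinase. They were taken by name from a table of 29022 genes, and each matched 1 row. The counts cover single embryos in 16 groups.

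Primitive endoderm is the inner cell mass (ICM) lineage that lines the blastocyst cavity and later forms the yolk sac endoderm. FGF4 from the epiblast side signals through FGF receptors and MEK to sustain Gata6 and, after it, Sox17, Gata4 and Sox7. Inhibition of MEK pushes ICM cells towards epiblast. Pdgfra marks primitive endoderm precursors and binds PDGF-A. Hnf4a and Foxa2 are better known from the visceral and definitive endoderm.

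The Oct4 and Sox2 lines shared a breeding scheme. Mothers were homozygous for a floxed allele (Pou5f1, which encodes Oct4, or Sox2) and carried Zp3-Cre, which is active in growing oocytes, so that the egg held no maternal product. Fathers were heterozygous for a knockout allele labelled with mKO2 (Pou5f1) or EGFP (Sox2). Labelled embryos were maternal-zygotic knockouts (KO), and unlabelled littermates lacked only the maternal product (Ctrl). MWT embryos kept the maternal gene. All were listed as B6C3F1 and came from superovulated females. Morulae were taken at E2.75. ICMs came from embryos cultured from E2.5 in KSOM with 1 µM of the MEK inhibitor PD0325901 and isolated by immunosurgery as early (E3.75) or late (E4.5) ICMs. The Ctrl and KO groups held 8 embryos each at each stage in each line. There were 7 Oct4 MWT morulae, 5 Oct4 MWT early ICMs, 8 Oct4 MWT late ICMs and 7 Sox2 MWT early ICMs. For the Oct4 MWT ICMs the title and the source name disagreed on the stage, and no inhibitor was listed for the 5 early ones. The titles were followed. All Ctrl and KO ICMs grew in the inhibitor, so no Ctrl ICM without it can be set beside them.

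In mm10, the build of the counts, Gata4 lies on chromosome 14 (63198922 to 63271692, minus strand), Sox7 on chromosome 14 (63943673 to 63950732, plus) and Sox17 on chromosome 1 (4490931 to 4497354, minus). Foxa2 and Hnf4a lie on chromosome 2 (148042877 to 148046969, minus, and 163506808 to 163572910, plus), and Pdgfra on chromosome 5 (75152292 to 75198215, plus).

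Promoter sequences held here covered Hnf4a, Pdgfra and Foxa2 of the 7 genes. Those of Hnf4a and Pdgfra are shown, since both genes fell in early and late Oct4-KO ICMs. Each run is 300 bases of the gene strand from RefSeq (GRCm38.p6), from 250 bases before the transcript start to 50 after it. The windows are chr2:163506607-163506906 and chr2:163546905-163547204 for 2 starts of Hnf4a, and chr5:75152001-75152300 for Pdgfra, all on the plus strand. Capitals mark matches to the motifs named below them.
Hnf4a, upstream start: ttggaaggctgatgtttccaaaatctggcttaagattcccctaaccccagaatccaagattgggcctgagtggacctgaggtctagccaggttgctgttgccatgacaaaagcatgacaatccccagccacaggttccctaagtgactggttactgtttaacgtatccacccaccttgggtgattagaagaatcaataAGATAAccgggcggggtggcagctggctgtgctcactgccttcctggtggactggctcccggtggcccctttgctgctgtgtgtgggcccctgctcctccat
Hnf4a, downstream start: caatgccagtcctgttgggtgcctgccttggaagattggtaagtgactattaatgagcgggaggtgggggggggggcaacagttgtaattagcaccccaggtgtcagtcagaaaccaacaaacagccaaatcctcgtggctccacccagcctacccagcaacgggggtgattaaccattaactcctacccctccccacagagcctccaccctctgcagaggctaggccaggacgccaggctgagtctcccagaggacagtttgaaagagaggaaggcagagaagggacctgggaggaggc
Pdgfra: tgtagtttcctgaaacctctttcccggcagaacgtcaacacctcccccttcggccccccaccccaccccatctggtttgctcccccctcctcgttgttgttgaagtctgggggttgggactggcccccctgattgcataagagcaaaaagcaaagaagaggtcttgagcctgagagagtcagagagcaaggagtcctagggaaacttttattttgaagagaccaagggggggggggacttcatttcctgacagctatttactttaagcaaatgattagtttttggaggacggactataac
The motifs reported, searched on both strands, were the POU octamer ATGCAAAT, CATTGT, the core bound by SOX factors, the SOX-OCT composite of both with any base between them, and the GATA motifs AGATAA and TGATAA. The composite contains CATTGT and ATGCAAAT. The sole match to these was AGATAA at the upstream Hnf4a start, 52 bases before it. AGATAA stood in 11.2% of 32851 promoters of the same length, TGATAA in 9.05%, CATTGT in 12.6% and ATGCAAAT in 1.74%. The composite stood in 0 of them. A match is a description of these letters and not a binding site, and binding farther away was not examined.

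Expression was counted as unique molecular identifiers (UMIs), each standing for 1 captured mRNA, and is given per 1000000 UMIs of the embryo (CPM). Totals ran from 525755 to 1344035 UMIs per embryo. Pou5f1 reached at most 4.73 CPM in the Oct4-KO embryos and was at least 13.4 CPM in every Oct4 Ctrl embryo. Sox2 was at most 36.4 CPM in Sox2-KO early ICMs against at least 72.6 CPM in Ctrl, and at most 29.3 against at least 94.2 CPM in late ICMs. In morulae the Sox2 groups overlapped. A gene was tested if at least 50% of the embryos of a stage had a UMI, and called at an adjusted p under 0.05 in edgeR's quasi-likelihood test with a log2 fold change of 1 or more in either direction. Of the 7 genes, 5 were tested. Sox7 and Foxa2 were too sparse and are described by their UMIs. Each ICM is bulk RNA, so fewer cells of a type and less RNA per cell cannot be told apart. Nothing in the sources used here says whether the counting used strand. Without it, UMIs of Hnf4a, Gata6, Sox17 and Pdgfra could not be told apart from those of transcripts that overlap them on the opposite strand, such as Hnf4aos.

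**Figure D1:**
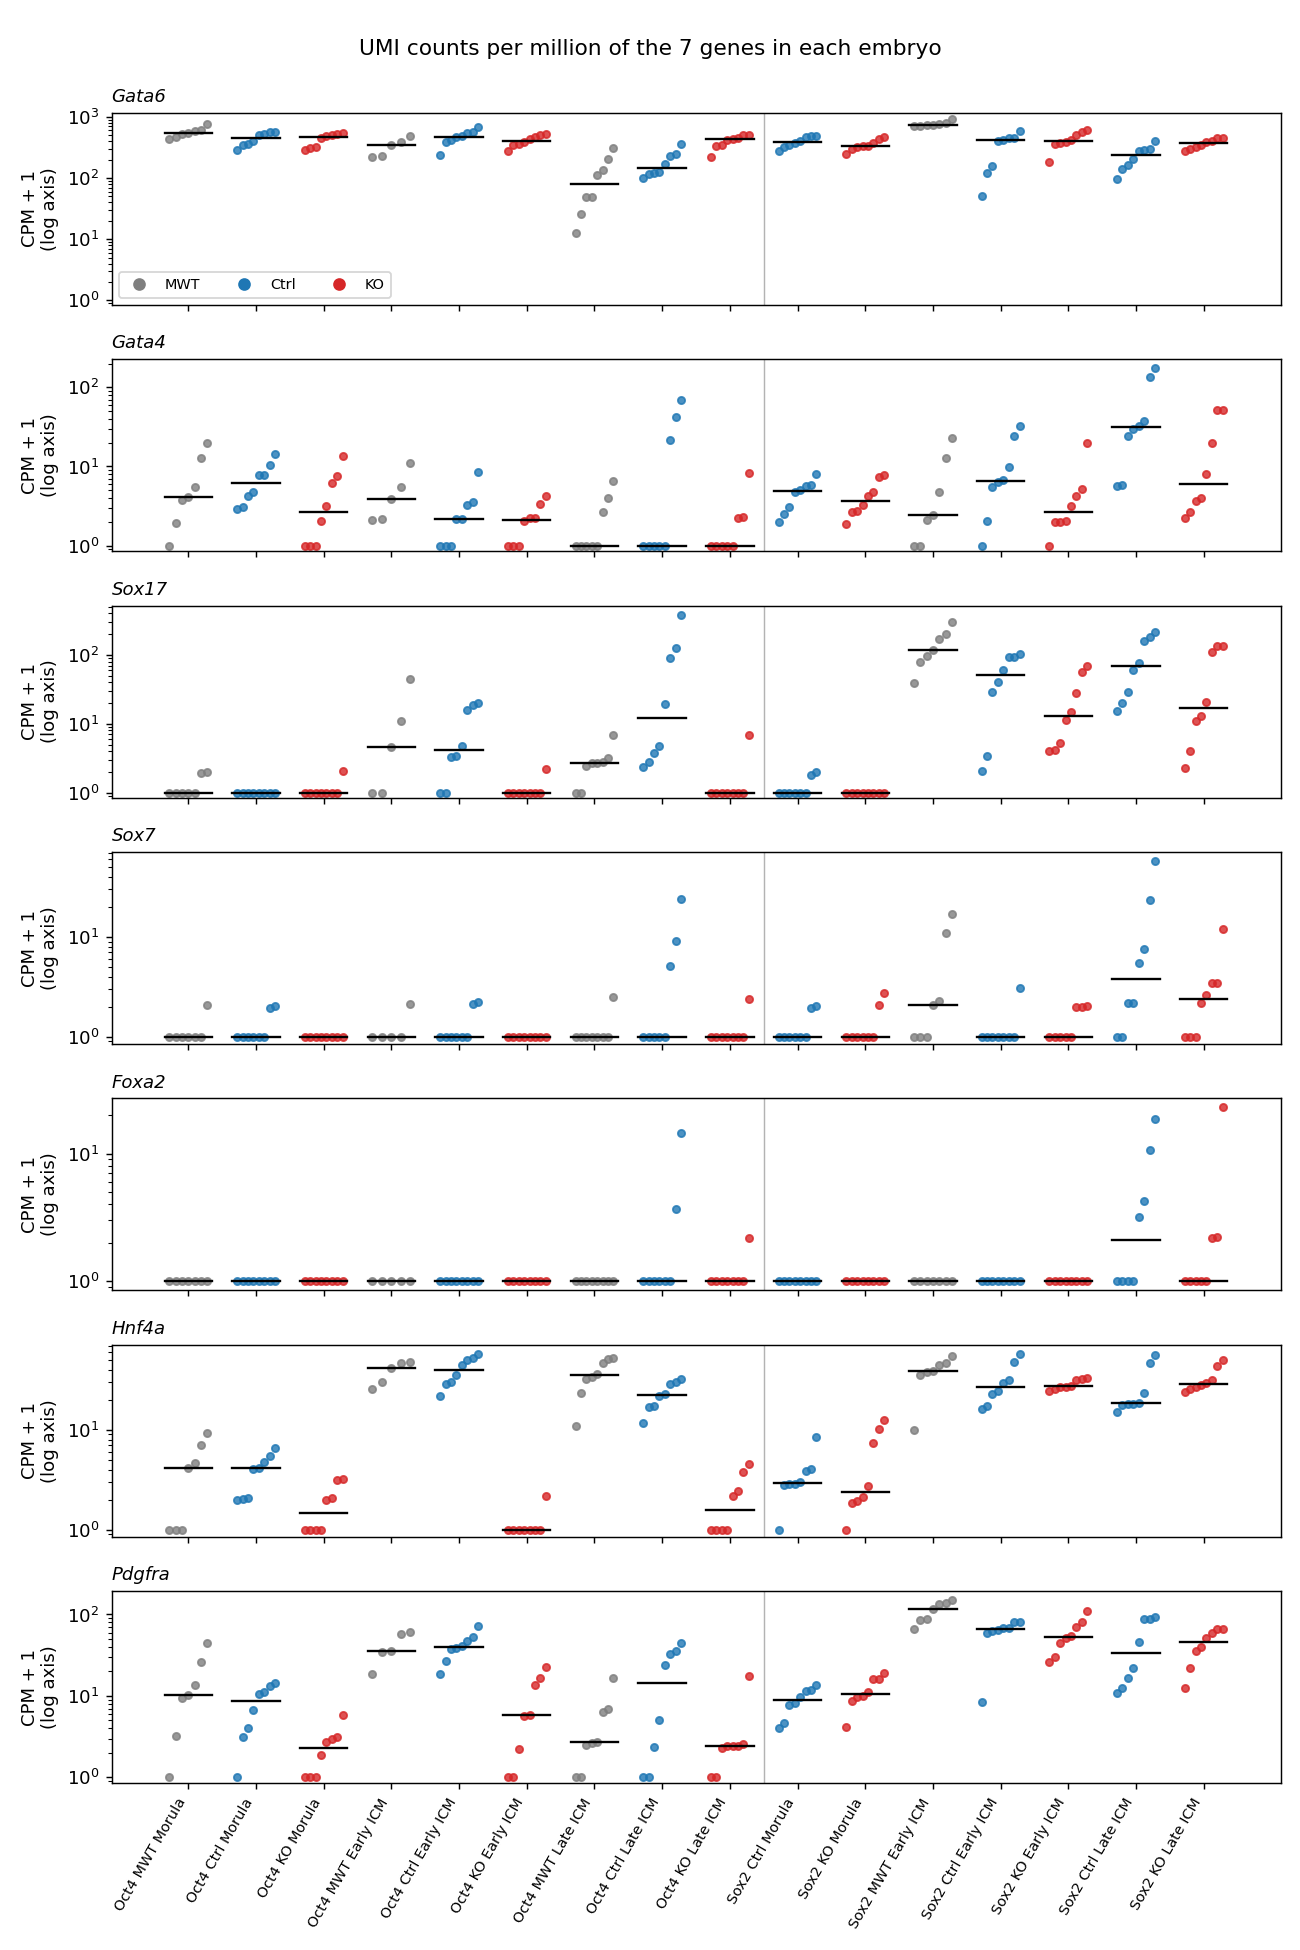
CPM + 1 (log axis) of the 7 genes. Each point is an embryo, bars are group medians and the grey line parts the Oct4 and Sox2 lines. Hnf4a in Oct4-KO ICMs lies below all Oct4 Ctrl ICMs of its stage, and Foxa2 appears in late ICMs of the Ctrl and KO groups and in no other group.

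Hnf4a, a nuclear receptor of the visceral endoderm and liver, was almost gone from Oct4-KO ICMs. At the early stage the Ctrl ICMs ran from 20.7 to 56.5 CPM with a median of 39.3 CPM. Of the 8 KO ICMs, 7 had no Hnf4a UMI and the other had 1. The groups did not overlap. The KO group held 1 UMI against 268 in Ctrl, which is 0.365% of the Ctrl level with an exact 95% interval of 0.00922% to 2.05% for counting error only. The log2 fold change was -7.05 ± 0.60 (SE, n = 8 and 8, edgeR adjusted p = 2.13e-17), and -8.07 without KO 18, which held the 1 UMI. With 1 UMI in KO, this SE is narrower than the counting interval. In late ICMs the Ctrl embryos ran from 10.7 to 31.7 CPM with a median of 21.4 CPM, and the KO embryos from 0 to 3.58 CPM with a median of 0.582 CPM. The groups were again apart. Hnf4a fell by 3.98 ± 0.51 on the log2 scale (SE, edgeR adjusted p = 5.84e-10). In morulae, where the level was low, Oct4-KO embryos held 6 UMIs and Ctrl embryos 23, and the fall missed the threshold (log2 fold change -1.74 ± 0.67, edgeR adjusted p = 0.201).

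Pdgfra also fell at both ICM stages. In Oct4 Ctrl early ICMs it ran from 17.8 to 70.3 CPM with a median of 38.4 CPM, and in Oct4-KO early ICMs from 0 to 21.9 CPM with a median of 4.80 CPM. The highest KO ICM reached above the lowest Ctrl ICM. The log2 fold change was -2.31 ± 0.50 (SE, n = 8 and 8, edgeR adjusted p = 0.000264). In late ICMs the Ctrl group spread from 0 to 43.4 CPM with a median of 13.4 CPM, and 7 of 8 KO ICMs had 0 or 1 Pdgfra UMI. The exception was Oct4-KO late ICM 2-2 with 13 UMIs. Pdgfra fell by 2.43 ± 0.68 on the log2 scale (SE, edgeR adjusted p = 0.00322). Without that ICM the log2 fold change was -3.92. In morulae the Ctrl median was 7.69 CPM and the KO median 1.29 CPM, with a log2 fold change of -2.11 ± 0.79 that was not called (edgeR adjusted p = 0.187).

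Sox17, an HMG-box factor needed for endoderm, was close to absent from Oct4-KO ICMs, but its level in Ctrl came from a few embryos. Oct4 Ctrl early ICMs held 53 UMIs in all, 46 of them in 3 ICMs, and the 8 KO ICMs held 1. The fall was just past the threshold (log2 fold change -4.72 ± 1.80, edgeR adjusted p = 0.0491), and the call was lost on leaving out any of 11 of the 16 embryos in turn, with adjusted p-values of up to 0.1. Without KO 5, which held the 1 UMI, the log2 fold change was -5.74. The embryos were Oct4 Ctrl early ICMs 4, 8 and 9 and each of the 8 KO ICMs, which were 1, 2, 5, 10, 11, 14, 17 and 18. In late ICMs the Ctrl group ran from 1.38 to 384 CPM with a median of 11.1 CPM, and 3 ICMs held 445 of 462 UMIs. The other 5 held 1 to 11 UMIs. Of the 8 KO ICMs, 7 held no UMI and 1 held 4. Sox17 fell by 6.57 ± 1.13 on the log2 scale (SE, edgeR adjusted p = 2.17e-06). Without Ctrl 1-9 the log2 fold change was -5.38, and without KO 2-5, which held the 4 UMIs, -9.18. In the Ctrl and KO morulae of both lines it was at 0 or 1 UMI in every embryo.

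Gata4, a zinc finger factor of the later primitive endoderm, fell in Oct4-KO late ICMs, though most embryos of both groups had none. All 97 UMIs of the Ctrl group were in 3 ICMs, with 15, 51 and 31 UMIs, and the other 5 ICMs were at 0. In the KO group 3 ICMs had 1, 5 and 1 UMIs and 5 were at 0. The median was 0 in both groups. The log2 fold change was -3.63 ± 0.96 (SE, n = 8 and 8, edgeR adjusted p = 0.00178). It was -2.77 without Ctrl 1-9 and -5.0 without KO 2-5. With limma on the rlog values the adjusted p was 0.0975. Gata4 was not called in Oct4-KO morulae or early ICMs, where the log2 fold changes were -0.69 ± 0.82 and -0.60 ± 1.25. Leaving out each embryo gave -1.35 to -0.41 in morulae and -0.99 to 0.21 in early ICMs, where the sign turned without Ctrl 9, so no direction is read at these stages.

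Gata6, the earliest of these factors in the lineage, went the other way. It was abundant in every group and did not differ by call between Oct4-KO and Ctrl in morulae (log2 fold change 0.00 ± 0.24) or early ICMs (-0.11 ± 0.25, 95% interval -0.60 to 0.37). In late ICMs the Ctrl group ran from 100.3 to 359 CPM with a median of 146 CPM, and the KO group from 218 to 513 CPM with a median of 430 CPM. Of the 8 KO ICMs 5 lay above the highest Ctrl ICM, and the ranges overlapped. Gata6 was higher in KO by 1.25 ± 0.26 on the log2 scale (SE, edgeR adjusted p = 4.74e-05). The KO median was 404 CPM in early ICMs, near its late value, while the Ctrl median was 471 CPM in early ICMs and lower in late ones.

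The count of members called in Oct4-KO embryos was 3 of 5 tested in early ICMs and 5 of 5 in late ICMs. In morulae it was 0 of 4, leaving aside Sox17, which held 0 and 1 UMIs there and could not have been called. Over all 14053 genes tested the share called was 0.804% in morulae, 10.9% in early ICMs and 18.1% in late ICMs. In morulae 2 of the 4 had an unadjusted p under 0.05, and DESeq2 and limma called 0. Trophectoderm markers moved alongside in the late ICMs, where 13 of 15 were called higher in Oct4-KO. Their summed level ran from 5646 to 9197 CPM in KO and from 838 to 3139 CPM in Ctrl, and none of the 15 was at 0. Epiblast markers fell in the same ICMs (12 of 13 lower), with sums of 691 to 1625 CPM in KO and 3503 to 4993 CPM in Ctrl. In Oct4-KO early ICMs 5 of 15 trophectoderm markers were called higher and 1 lower, and 10 of 13 epiblast markers lower. In Sox2-KO the trophectoderm counts were 6 higher and 1 lower (early) and 5 and 0 (late), with 8 epiblast markers lower at each stage, beside 3.27% and 6.95% of all genes. Their part in the changes of the primitive endoderm genes was not tested.

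Sox7 and Foxa2, a SOX relative of Sox17 and a forkhead factor, were read too rarely for a test. Over the 16 groups, Sox7 had a UMI in 34 embryos and Foxa2 in 10, all 10 of them late ICMs of the Ctrl and KO groups. The 12 groups with no Foxa2 UMI allow up to 0.339 to 0.629 CPM, taking 3 UMIs per group as the limit. Oct4 Ctrl late ICMs held 26 Sox7 UMIs in 3 ICMs, and Oct4-KO late ICMs held 1, which is 3.42% of the Ctrl level (exact 95% interval 0.0835% to 20.8%). For Foxa2 the counts were 12 and 1, a ratio of 7.42% with an interval of 0.174% to 50.1%. Ctrl 1-9 held 17 of these Sox7 and 10 of these Foxa2 UMIs. Without it the counts were 9 and 1 for Sox7 (8.51%, interval 0.194% to 61.4%) and 2 and 1 for Foxa2 (38.3%, interval 0.649% to 736%), so no fall of Foxa2 is read from them. These intervals cover counting error and not the spread between embryos.

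None of the 5 tested members was called in Sox2-KO ICMs in the edgeR test, nor any of 4 in morulae, where Sox17 (2 and 0 UMIs) could not have been called. The share of all genes called was 0.00712% in morulae, 3.27% in early ICMs and 6.95% in late ICMs. Members with an unadjusted p under 0.05 numbered 0, 0 and 2 in that order. DESeq2 called 0 of them at every stage. Limma on the rlog values also called 0 of them, and called Sox7, tested there, in late ICMs. Hnf4a ran from 15.2 to 57.1 CPM in Sox2 Ctrl early ICMs (median 26.1 CPM) and from 23.7 to 32.2 CPM in Sox2-KO early ICMs (median 26.4 CPM). The KO values lay inside the Ctrl range, and the 95% interval of the log2 fold change was -0.64 to 0.53. In late ICMs the interval for Hnf4a was -0.21 to 0.99. For Pdgfra the intervals were -0.80 to 0.76 in early and -0.79 to 0.84 in late ICMs. Sox17 was lower in the means, with log2 fold changes of -1.10 ± 0.66 and -0.70 ± 0.61, and neither was called (adjusted p = 0.363 and 0.510).

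Gata6 and Gata4 came nearest to a call in Sox2-KO late ICMs. Gata6 ran from 95.9 to 400 CPM in Ctrl (median 236 CPM) and from 274 to 457 CPM in KO (median 370 CPM), with overlapping ranges. The log2 fold change of 0.77 ± 0.25 had an edgeR adjusted p of 0.0253 and was under the fold minimum. Gata4 ran from 4.71 to 174 CPM in Ctrl (median 30.2 CPM) and from 1.25 to 51.5 CPM in KO (median 5.00 CPM). Its log2 fold change was -1.55 ± 0.60 (edgeR adjusted p = 0.0694), and it was called on leaving out Ctrl 1-1 or 1-4 or KO 1-6 or 2-6, with an adjusted p as low as 0.0206. Sox7 held 81 UMIs in Ctrl and 15 in KO late ICMs, and Foxa2 29 and 20. Single ICMs held much of these sums. Ctrl 2-6 held 48 of the Sox7 and 15 of the Foxa2 UMIs, and KO 2-6 held 9 and 18, so no fall is read from them.

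**Figure D2:**
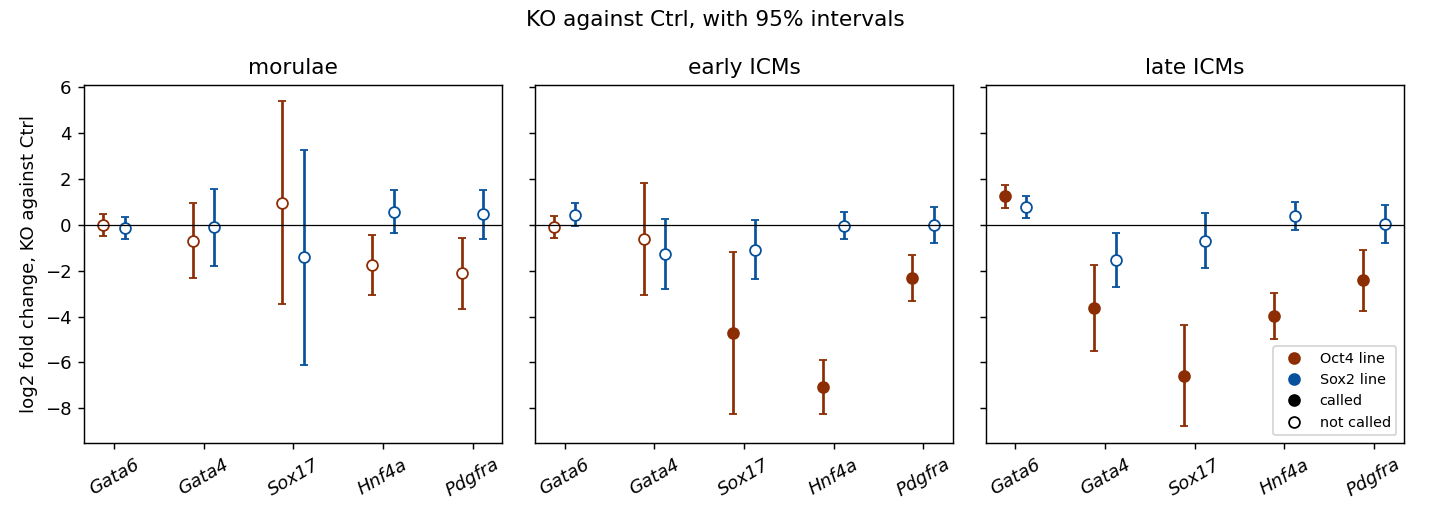
Log2 fold change of KO against Ctrl for the 5 tested genes at each stage, from 8 and 8 embryos, with 95% intervals worked back from the F statistic. Filled points were called. In late ICMs all 5 Oct4 points are filled, with Gata6 above 0 and the rest below, and no Sox2 point is filled at any stage.

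The lines were compared by testing the difference of their KO effects. In early ICMs the Oct4-KO effect was lower than the Sox2-KO effect for Hnf4a by -7.0 ± 0.72 (edgeR adjusted p = 1.36e-12) and for Pdgfra by -2.29 ± 0.65 (adjusted p = 0.0139) on the log2 scale. With thinned counts the Pdgfra difference had an adjusted p of 0.0685. These were 2 of 5 members, and 5.52% of all genes were called. In late ICMs 3 of 5 differed, with 6.3% of all genes called. The differences were -4.36 ± 0.61 for Hnf4a (adjusted p = 8.70e-08), -5.87 ± 1.39 for Sox17 (adjusted p = 0.00271) and -2.45 ± 0.81 for Pdgfra (adjusted p = 0.0390). Pdgfra lost its call with thinned counts, with limma and with the compared groups alone (adjusted p = 0.101, 0.104 and 0.109), and Sox17 with limma (adjusted p = 0.452). Gata6 and Gata4 were not shown to differ between the lines at either stage, with differences in late ICMs of 0.48 ± 0.35 and -2.09 ± 1.18. Between stages, the Oct4-KO effect on Gata6 was higher in late than in early ICMs by 1.36 ± 0.35 (edgeR adjusted p = 0.0116). That was 1 of 5 members, with 3.11% of all genes called. For Sox2-KO 0 of 5 members and 0.0427% of all genes were called, and 0 of 5 had an unadjusted p under 0.05. DESeq2 and limma called 0 as well.

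From morulae to early ICMs the Ctrl embryos of both lines gained Sox17, Hnf4a and Pdgfra. Morulae were whole and had no inhibitor, while ICMs were cultured, MEK-inhibited and stripped of trophectoderm, so stage, culture, inhibitor and dissection cannot be told apart. In the Oct4 line Hnf4a went from a median of 3.14 CPM to 39.3 CPM (log2 fold change 3.59 ± 0.39, edgeR adjusted p = 2.50e-13) and Pdgfra from 7.69 CPM to 38.4 CPM (2.40 ± 0.50, adjusted p = 3.40e-05). For both genes all early ICMs lay above all morulae. Sox17 had 0 UMIs in the morulae, so its rise was at least 20.4-fold, counted against 3 UMIs in the group, and the edgeR call (adjusted p = 0.0120) was lost with limma (adjusted p = 0.0982). In the Sox2 line the changes were 3.35 ± 0.39 for Hnf4a, 2.83 ± 0.47 for Pdgfra and 7.11 ± 1.21 for Sox17, with adjusted p-values of 3.13e-12, 2.95e-07 and 5.88e-07. The Sox17 sums of 388 and 2 UMIs gave a 231-fold difference with an exact 95% interval of 63.5 to 1913, and a 396-fold one without morula 7, which held 1 of the 2. Gata6 and Gata4 were not called in either line. The 3 of 5 members called stood beside 29% of all genes in the Oct4 line and 31.9% in the Sox2 line.

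From early to late ICMs the members parted. In the Oct4 line Gata6 fell by 1.32 ± 0.25 on the log2 scale (edgeR adjusted p = 1.81e-05), and every late ICM lay below the early median of 471 CPM. Gata4 rose by 3.14 ± 0.85 (adjusted p = 0.00237) and Sox17 by 3.43 ± 0.76 (adjusted p = 0.000181), with all 97 Gata4 and 445 of 462 Sox17 UMIs of the late ICMs in the same 3 embryos. Without late ICM 1-9 the log2 fold changes were 2.28 and 2.24, and Gata4 was at 3.96 without early ICM 9. With limma the adjusted p for Gata4 was 0.112. Pdgfra fell by 1.14 ± 0.47 with an adjusted p of 0.05, at the threshold, and the call was lost on leaving out any of 11 of the 16 embryos. These were early ICMs 1, 2, 3, 7, 8 and 9 and late ICMs 1-2, 1-6, 2-1, 2-4 and 2-9, with adjusted p-values of up to 0.114. It was also lost with RLE factors, with DESeq2 and with the compared groups alone (adjusted p = 0.0593, 0.102 and 0.0563). Hnf4a changed by -0.80 ± 0.31, under the fold minimum. That made 4 of 5 called, or 3 without Pdgfra, where 15.6% of all genes were. In the Sox2 line Gata4 alone was called (log2 fold change 2.40 ± 0.62, edgeR adjusted p = 0.00869), 1 of 5 beside 2.9% of all genes. Without Sox2 Ctrl late ICM 2-6 its adjusted p was 0.0622.

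Ctrl embryos were also set against MWT embryos, which kept the maternal gene. Their mothers differed in genotype, so the maternal product cannot be told apart from other differences between the matings or their collection. Oct4 Ctrl and MWT morulae differed in 0 of 4 members (0.0646% of 13923 genes called), leaving aside Sox17, whose 0 and 2 UMIs could not have given a call. Early ICMs differed in 0 of 5 (0.373%), and none of these members had an unadjusted p under 0.05 in either stage. DESeq2 and limma also called 0. Sox17 in Oct4 MWT late ICMs was 0 to 4 UMIs, against 1 to 287 in Ctrl. It was higher in Ctrl by 5.42 ± 0.94 on the log2 scale (edgeR adjusted p = 0.000208), and Gata4 by 3.50 ± 0.93 (adjusted p = 0.0269). Without Ctrl 1-9 these were 4.22 and 2.63, and Gata4 was at 4.47 without MWT 15. These were 2 of 5 members, with 0.797% of all genes called. The Gata4 call was lost on leaving out Ctrl 1-9 or 2-9 or MWT 4, 7, 14 or 19, with adjusted p-values of up to 0.185, and with limma or the compared groups alone (0.291 and 0.159). DESeq2 gave no adjusted p for it. Gata6 was called without MWT 20 (adjusted p = 0.0208), and Pdgfra without MWT 15 or Ctrl 2-1 or 2-4, with an adjusted p as low as 0.0271. The stage of these MWT ICMs rests on their titles alone.

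In the Sox2 line Gata6 was lower in Ctrl than in MWT early ICMs. The MWT ICMs ran from 696 to 935 CPM and the Ctrl ICMs from 49.2 to 592 CPM, with no overlap. The log2 fold change was -1.23 ± 0.29 (edgeR adjusted p = 0.00272). That was 1 of 5 members beside 2.58% of all genes. Pdgfra and Sox17 were at -0.87 ± 0.40 and -1.45 ± 0.59 and were not called.

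Late ICMs of the same group differed widely from each other, and some embryos stood out for several members. Oct4 Ctrl late ICM 1-9 had 51 Gata4, 287 Sox17, 17 Sox7 and 10 Foxa2 UMIs, and Oct4 Ctrl late ICM 2-9 had 31, 92, 6 and 2. Oct4 Ctrl late ICMs 1-2, 1-6, 2-1 and 2-4 had 0 Gata4, 0 Sox7, 0 Foxa2 and 1 or 2 Sox17 UMIs. Sox2 Ctrl late ICMs 2-4 and 2-6 carried 126 and 147 Gata4 UMIs, 197 and 154 Sox17 UMIs, 21 and 48 Sox7 UMIs, and 9 and 15 Foxa2 UMIs. High Sox17 did not always come with Sox7 and Foxa2. Sox2-KO late ICMs 1-1 and 1-6 had 94 and 111 Sox17 UMIs with 0 and 2 of Sox7 and 1 and 1 of Foxa2. Among Sox2-KO late ICMs, 2-6 held 18 of the 20 Foxa2 UMIs and 9 of the 15 Sox7 UMIs. The one Oct4-KO late ICM with a Foxa2 UMI, 2-6, had 0 Sox17 UMIs. Hnf4a was not high in Oct4 Ctrl 1-9 and 2-9 or in Sox2 Ctrl 2-4 and 2-6. It was 12 and 8 UMIs in Oct4 Ctrl 1-9 and 2-9, in a group that ran from 8 to 20 UMIs. It was 13 and 15 UMIs in Sox2 Ctrl 2-4 and 2-6, in a group that ran from 13 to 41 UMIs. The 41 UMIs were in Sox2 Ctrl 2-3, which also had 117 Sox17 and 68 Pdgfra UMIs, so high Sox17 did not always come with low Hnf4a.

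**Figure D3:**
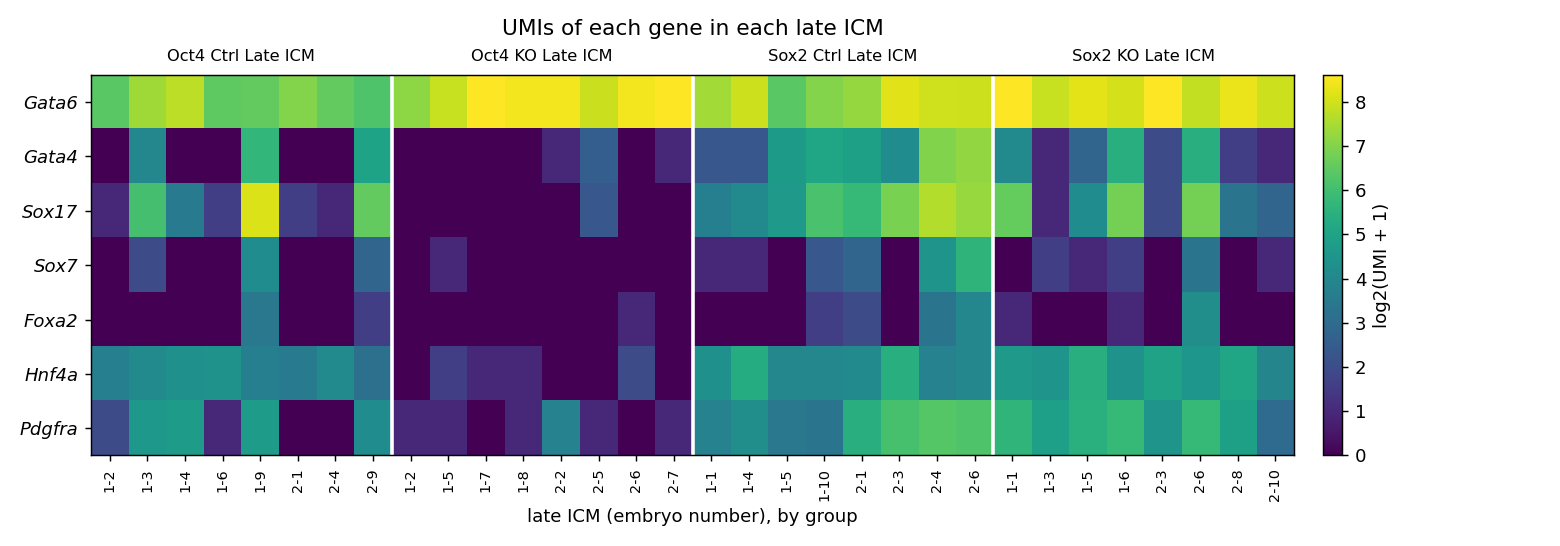
UMIs of the 7 genes in each of the 32 Ctrl and KO late ICMs, as log2(UMI + 1) by colour. Columns are embryos by number, and white lines part the groups. Oct4 Ctrl 1-9 and Sox2 Ctrl 2-4 and 2-6 are bright for Sox17, Gata4, Sox7 and Foxa2, and Oct4 Ctrl 2-9 has 92, 31, 6 and 2 UMIs of them. Sox2 Ctrl 2-3 has 117 Sox17 and 41 Hnf4a UMIs but 0 of Sox7 and of Foxa2. Hnf4a is at 3 UMIs or fewer in every Oct4-KO ICM and at 8 or more in every other.

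Pairs of members were compared over the 84 ICMs of both lines, MWT included, as log2(CPM + 1) after removing each group's mean. Of 21 pairs, 10 had 30 or more ICMs with a UMI of both genes and were tested by permutation within groups (100000 draws, two-sided). Gata4 and Sox17 moved together most closely, with Pearson r = 0.78 and Spearman rho = 0.75 (adjusted permutation p = 5e-05 for both, from the smallest p that these draws can give). Without the 2 ICMs farthest from the Gata4 median r was 0.75, and it was 0.76 in the Oct4 line and 0.80 in the Sox2 line. Sox17 and Pdgfra had r = 0.50 (rho = 0.55, adjusted permutation p = 5e-05), and Gata4 and Pdgfra r = 0.50 (rho = 0.49, adjusted permutation p = 0.0002 for r). Without the 2 farthest ICMs these were 0.50 and 0.46.

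Hnf4a ran against Gata4 weakly, with r = -0.29 and rho = -0.30 (adjusted permutation p = 0.0253 and 0.0173), and r = -0.25 without the 2 farthest ICMs. With Gata6 it gave r = 0.30 (adjusted permutation p = 0.0331) and rho = 0.26 (adjusted p = 0.0629), and r = 0.20 without the 2 farthest. The other 5 pairs had adjusted p-values from 0.208 to 0.958 for r. Of these, Gata6 with Pdgfra (r = 0.19, 0.03 in the Oct4 line and 0.53 in the Sox2 line) passed with a pseudocount of 5 (r = 0.29, adjusted permutation p = 0.0361). Gata6 with Gata4 was at r = 0.01 and with Sox17 at -0.04. Embryos share the group's library preparation, and the late ICMs carry 2 sets of numbers, so these relations are descriptions of these embryos.

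**Figure D4:**
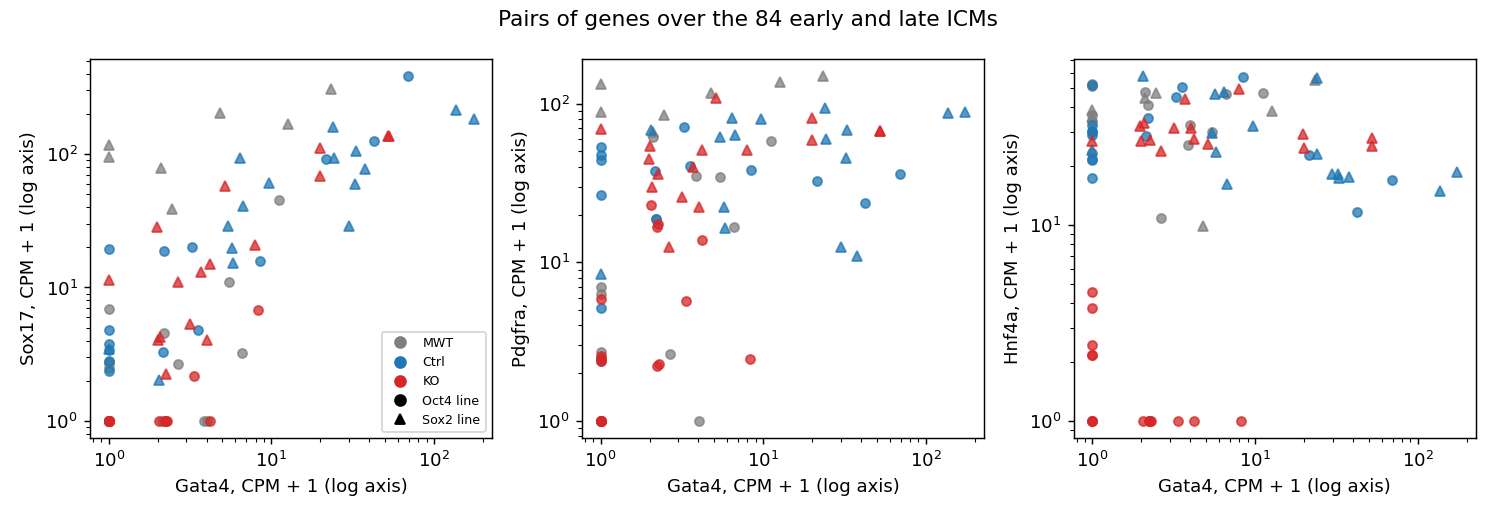
Sox17, Pdgfra and Hnf4a against Gata4 in the 84 early and late ICMs, both axes as CPM + 1 on log axes. Colours give the genotype and symbols the line. Sox17 rises with Gata4 (r = 0.78 after removing group means), and Hnf4a does not.

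The late ICMs carry numbers that begin with 1 or 2, and in the Sox2 line the sets differed. Pdgfra in Sox2 Ctrl ran from 9.97 to 21.2 CPM in set 1 and from 44.4 to 92.2 CPM in set 2, with 4 ICMs in each and no overlap. Within set 1 the Pdgfra mean was higher in KO (52.1 ± 13.2 CPM, SD, n = 4) than in Ctrl (14.6 ± 5.00 CPM), and within set 2 lower (34.5 ± 24.0 against 77.5 ± 22.2 CPM). Sox17 means were 66.8 ± 66.3 and 34.3 ± 28.6 CPM (SD) in KO and Ctrl of set 1 and 40.3 ± 63.9 and 153 ± 66.5 CPM in set 2. Gata4 means were 19.6 ± 22.4 and 18.7 ± 16.5 CPM in set 1 and 14.7 ± 24.5 and 91.0 ± 75.3 CPM in set 2. In set 1 the KO and Ctrl means of Sox17 and of Gata4 lay closer together than the SD of the KO embryos, so no direction is read from them. What the sets stand for is not given in the sources used here. In the Oct4 line, where sets 1 and 2 held 5 and 3 Ctrl and 4 and 4 KO ICMs, Gata6 was higher in KO within each set (378 against 189 CPM, and 426 against 170 CPM), Hnf4a lower (1.35 against 22.8, and 0.894 against 20.2 CPM), and Sox17 lower (0 against 99.4 ± 163, and 1.45 ± 2.90 against 42.9 ± 69.4 CPM, SD). In set 1 the KO means were lower for Gata4 (0 against 17.8 ± 29.6 CPM, SD) and Pdgfra (1.10 ± 0.738 against 23.0 CPM, with Ctrl ICMs from 1.39 to 43.4 CPM). In set 2 Gata4 was at 2.45 ± 3.25 against 13.8 ± 23.9 CPM and Pdgfra at 4.79 ± 7.78 against 7.58 ± 13.1 CPM, differences within the SD of Ctrl. There Ctrl 2-1 and 2-4 had 0 UMIs of both genes, so that without Ctrl 2-9 (31 Gata4 and 17 Pdgfra UMIs) the KO means were the higher ones. With the set as a block all 5 members stayed called in Oct4-KO late ICMs and none was in Sox2-KO late ICMs.

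In the KO comparisons, other primitive endoderm genes did not move as a group with the members. Of 20 listed genes 19 were tested. Oct4-KO called 5 higher and 4 lower at the early stage and 4 and 6 at the late stage, with medians of 0.01 and -0.14 on the log2 scale against 0.01 and -0.01 over all genes. Of all genes 10.9% and 18.1% were called. Sox2-KO called 2 higher and 0 lower, then 0 and 2, beside 3.27% and 6.95% of all genes. From early to late Ctrl ICMs the list did rise, with 8 higher and 1 lower in the Oct4 line and 7 and 1 in the Sox2 line. Its medians there were 0.81 and 1.17, and 15.6% and 2.9% of all genes were called. Within their groups its summed level was highest in Oct4 Ctrl late ICMs 1-9 and 2-9 (3659 and 2533 CPM) and Sox2 Ctrl late ICMs 2-6 and 2-4 (4300 and 2731 CPM). Lrp2 and Dab2, an endocytic receptor and its adaptor, rose in early ICMs of both knockouts. With Oct4 lost the changes were 3.31 ± 0.41 and 2.45 ± 0.35 (edgeR adjusted p = 4.37e-10 and 2.05e-08), and with Sox2 lost 2.45 ± 0.46 and 1.79 ± 0.37 (edgeR adjusted p = 7.98e-05 and 0.000478). Lama1, a laminin chain, and Serpinh1, a collagen chaperone, fell in late ICMs of both lines. Lama1 changed by -1.40 ± 0.56 in Oct4-KO and -1.73 ± 0.56 in Sox2-KO (edgeR adjusted p = 0.0475 and 0.0261). Serpinh1 changed by -1.34 ± 0.53 and -1.86 ± 0.52 (edgeR adjusted p = 0.0439 and 0.00838), so the Oct4-KO calls were near the threshold. Of the 8 visceral and definitive endoderm genes 5 were tested, and Gsc was the sole one called in Oct4-KO ICMs, by -2.86 ± 0.48 and then -4.43 ± 0.49. Sox2-KO called 0 of them in early ICMs and 1 in late ICMs, Hhex, a homeobox factor of the anterior visceral endoderm, which was higher by 1.92 ± 0.42 (edgeR adjusted p = 0.000445).

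Most genes of the FGF and MEK pathway were not called in either knockout, but the share called was above that of all genes in both. Of 23 genes 22 were tested, and Oct4-KO called 2 higher and 3 lower at the early stage, then 3 and 4 at the late stage. Sox2-KO called 2 and 2, then 1 and 3. Of all genes, Oct4-KO called 4.77% higher and 6.11% lower at the early stage, then 9.25% and 8.85%. For Sox2-KO these shares were 1.57% and 1.69%, then 3.34% and 3.61%. The list medians lay between -0.18 and 0.03 on the log2 scale. Fgf4, the ligand that primitive endoderm precursors respond to, fell in all 4. In the Oct4 line its log2 fold changes were -2.10 ± 0.37 (early) and -4.35 ± 0.41 (late). Those of the Sox2 line were -2.58 ± 0.36 and -3.50 ± 0.36. Etv5, a target of the pathway, fell by 4.22 ± 0.30 in Oct4-KO and 1.26 ± 0.23 in Sox2-KO late ICMs. Spry4, a feedback inhibitor of the pathway, fell by 2.76 ± 0.64 and 1.47 ± 0.51 in the same late ICMs, and Egr1, an immediate early gene, by 1.94 ± 0.46 and 2.08 ± 0.36 in early ICMs. Dusp6, a phosphatase that acts on ERK, rose by 1.5 ± 0.39 and 1.10 ± 0.37 in late ICMs. Dusp4, of the same family, rose by 2.85 ± 0.57 and 2.85 ± 0.58 in early and late Oct4-KO ICMs, with 1.60 ± 0.62 and 1.17 ± 0.50 in Sox2-KO (edgeR adjusted p = 0.107 and 0.106). All these ICMs had grown in the MEK inhibitor.

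Among relatives and ligands of the members 7 of 14 were tested. Pdgfa, the ligand of Pdgfra, rose at the early stage by 1.46 ± 0.21 with Oct4 lost and by 1.27 ± 0.22 with Sox2 lost (edgeR adjusted p = 5.45e-08 and 1.38e-05). Gata3, a GATA factor of the trophectoderm and also on that list, rose by 2.85 ± 0.35 in Oct4-KO and 1.52 ± 0.33 in Sox2-KO late ICMs. Gata1 rose by 4.17 ± 0.62 and 3.04 ± 0.72 in the same ICMs. In all, Oct4-KO called 3 of the list higher and 0 lower at each ICM stage. Sox2-KO called 2 higher and 0 lower, then 2 higher and 1 lower, which was Gata2. Of all genes, 4.77% and 9.25% were called higher in early and late Oct4-KO, and 1.57% and 3.34% in Sox2-KO.

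The genes with patterns most like each member were found by Pearson r of log2(mean CPM + 1) over the 16 groups, among 11238 genes whose mean reached 5 CPM in a group. Hnf4a was closest to Pald1 (r = 0.98), Fn1 (0.97) and Six3 (0.96). Sox17 was closest to Stambpl1, Asb1 and Egfl7 (0.92 each), and Gata4 to Foxq1 (0.94), Ramp2 (0.87) and Plekho1 (0.86). Pdgfra was closest to Rai1 and Aco1 (0.92 each) and Ino80d (0.91). Gata6 was closest to Ctsd and Sqstm1 (0.88 each) and 1010001N08Rik (0.86), a transcript that overlaps Gata6 on the opposite strand. The groups share controls and stages, so these r values describe patterns over group means. Between members, Sox17 was at 0.82 with Pdgfra and 0.80 with Hnf4a, and Gata6 was at -0.28 with Hnf4a and -0.16 with Gata4.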

How the data were processed

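Single embryos were profiled by 3′-enriched RNA-seq with UMIs, in 16 groups of embryos taken from the titles. The authors extracted UMIs (UMI-tools), trimmed poly-A (Cutadapt), aligned to mm10 (TopHat2), assigned reads to genes (featureCounts) and derived unique transcripts per gene with TRUmiCount. They deposited UMI counts per gene and, in a second table, log2-scaled values (rlog, from DESeq2). The deposited counts were used here, and the deposited log2 values served as an alternative. Embryos held 525755 to 1344035 UMIs. No column was left without a sample.

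Genes seen in 50% or more of the embryos of any stage were fitted with edgeR 4.0.16 (R 4.3.3; TMM factors, quasi-likelihood test, Benjamini-Hochberg adjustment), over 14053 genes for Ctrl and KO embryos and 13923 genes for all embryos (Ctrl against MWT). Calls needed an adjusted p under 0.05 and a log2 fold change of 1 or more in either direction. On simulated data for Oct4-KO against Ctrl late ICMs (14053 genes, 200 changed) the test recovered 84% of the changed genes and called 2 unchanged ones. The simulated counts used the fit's own dispersions, and only genes above a count minimum were changed. The simulation therefore does not cover genes whose UMIs sit in few embryos. Counting intervals are exact and cover counting error only. The embryos of a group were separate embryos, so p-values measure the spread between embryos.

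The 7 genes and all lists were chosen with earlier results of these data known. Genes named beside the 7 were the 3 most alike in pattern to each tested member, the genes of each list called in both lines at the same stage, and the highest and lowest of each list in each KO comparison, of which some are printed and 1 is not reported here, nor is 1 promoter motif. Lists covered other primitive endoderm genes, the FGF and MEK pathway, relatives and ligands, epiblast, trophectoderm, and visceral and definitive endoderm. Alternatives were DESeq2 1.42.0, limma 3.58.1 on the log2 values, other scaling, no filter, no fold minimum, thinned counts, the compared groups alone, a replicate block, the label set as a block and leaving out each embryo. The leave-one-out of the 4 stage contrasts of Ctrl embryos, and UMI ratios without the top embryo, were chosen after seeing the data. Within groups, 416 pairs of embryos were checked for a library deposited more than once, over genes with at least 20 UMIs in the pair. The chi-square per degree of freedom was 2.63 to 12.8, so each embryo was counted as 1 sample.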

Additional observations from a re-analysis of the deposited data

Results flagged for a closer look

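Of 66 groups of 4 to 10 embryos in which a member had at least 10 UMIs in an embryo, 11 had an embryo far from the others by Dixon's test. Of these 10 were on the high side. The test's rate of about 1 in 20 by chance is for normal values, and it is not the chance rate here, since CPM of sparse counts is skewed and the groups were kept for an embryo with 10 UMIs or more. Oct4 Ctrl late ICM 1-9 was high for Sox17 (384 CPM), Sox7 (22.8 CPM) and Foxa2 (13.4 CPM). Sox7 reached 56.8 CPM in Sox2 Ctrl late ICM 2-6, and Foxa2 reached 22.1 CPM in Sox2-KO late ICM 2-6. Gata4 was high in Sox2-KO early ICM 8 (18.98 CPM) and Sox17 in Oct4 MWT early ICM 7 (44.3 CPM). Hnf4a was high in Sox2 Ctrl morula 20 (7.44 CPM). Pdgfra was high in Oct4 MWT late ICM 15 (15.7 CPM) and Oct4-KO late ICM 2-2 (16.4 CPM), and low in Sox2 Ctrl early ICM 10 (7.39 CPM).

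The Oct4-KO and Sox2-KO effects differed by test for Hnf4a (-7.0 on the log2 scale) and Pdgfra (-2.29) in early ICMs, and for Sox17 (-5.87), Hnf4a (-4.36) and Pdgfra (-2.45) in late ICMs. The Oct4-KO effect on Gata6 was higher in late than in early ICMs by 1.36.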

How the results depend on the processing

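Over 18 comparisons and the correlations, the count of members called stayed within 1.5 times in 159 of 176 alternatives. Hnf4a kept its call in Oct4-KO early and late ICMs under every alternative run. In Sox2-KO late ICMs, where 0 members were called, 1 was called with no fold minimum (Gata6), with totals alone and the replicate block (Gata4), and with no filter and limma (Sox7, which these test in addition, among 7 and 6 members). The block also gave 1 in Oct4-KO morulae and 1 in Sox2-KO early ICMs (0 without it), and 3 in Sox2 Ctrl against MWT early ICMs (1), where the same embryos without the block gave 0 and no filter gave 2 (with Sox7). Sox2 Ctrl late against early ICMs (1) gave 3 with no filter (with Sox7 and Foxa2) and 2 with limma (with Sox7). The difference between lines gave 1 with thinned counts in early ICMs (2) and 1 with limma in late ICMs (3). The change of the Oct4-KO effect with stage (1) gave 2 with DESeq2 and 2 with limma (with Hnf4a). Oct4 Ctrl against MWT late ICMs (2) gave 1 with the compared groups alone. The causes were not tested.

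Sox17 in Oct4-KO early ICMs lost its call under RLE factors, thinned counts, limma, the block and the same embryos without it (adjusted p = 0.000839 to 0.574 over its alternatives). Uncalled values changed sign for Gata4 in Oct4-KO early ICMs (0.047 with thinned counts, 0.28 with the block, 0.29 for the same embryos without it) and for Sox17 in Sox2-KO early ICMs (0.0057 and 0.18 with the block and without it). Leaving out each embryo gave both signs for 12 of 48 uncalled member values, among them Gata4 in Oct4-KO early ICMs, and for 0 called ones. Leaving out each embryo gave 0 to 1 members in Sox2-KO late ICMs, 0 to 1 in Sox2 Ctrl late against early ICMs, and 1 to 3 in Oct4 Ctrl against MWT late ICMs. The replicate numbers do not pair the embryos: for the comparisons with 3 or more shared numbers, correlations of same-numbered embryos ran from -0.29 to 0.29 and none had all above 0.1. A block could not be fitted for Oct4-KO late ICMs, Sox2-KO morulae and Oct4 Ctrl against MWT late ICMs, which share 1, 0 and 0 numbers. Sox7, Foxa2 and, in many embryos, Gata4 had a few UMIs or none, and the part of depth in this was not tested.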

Other observations

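Sox2 MWT early ICMs held more of several members than the other early ICMs in plain values, without a test between those groups. Sox17 ran from 37.7 to 304 CPM there and from 0 to 44.3 CPM in Oct4 MWT early ICMs. Sox7 had 21 UMIs in 4 of 7 Sox2 MWT early ICMs and 1 UMI in 5 Oct4 MWT early ICMs. Foxa2 had 0 UMIs in both groups. Gata6 in Oct4 MWT late ICMs spread from 11.6 to 311 CPM, the widest span by ratio among the 16 groups.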
